A study of Mus musculus with 9 samples.

Results

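The collagen crosslinking and hydroxylation enzymes described here are 10 genes taken by name from the 51912 genes of the count table: the lysyl oxidases Lox, Loxl1, Loxl2, Loxl3 and Loxl4, the lysyl hydroxylases Plod1, Plod2 and Plod3, and the prolyl hydroxylase subunits P4ha1 and P4ha2. All 10 passed the filter on low counts. They were measured by RNA sequencing in organoids, fragments of tumour epithelium kept in a gel, from MMTV-PyMT mice, in which the mouse mammary tumour virus promoter drives a viral oncogene in mammary epithelium. All mice were of the FVB/NJ strain and carried the mT/mG reporter at Rosa26, and all organoids were exposed overnight to adeno-Cre, an adenovirus that delivers Cre recombinase, and then cultured for 48 h in collagen I with FGF2. The 4 WT samples had the genotype Cdh1+/+ and the 5 E-cad-KO samples had Cdh1fl/fl, so that Cre can delete Cdh1, the gene of E-cadherin. The labels give no age and name no animal, and the adenovirus is not restricted by a promoter to 1 cell type as far as they say. The series text calls the samples biological replicates. Since the animals are not named, the p-values speak only of how far these samples spread, which may be technical in part.

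Collagen is modified in steps. In the endoplasmic reticulum, prolyl 4-hydroxylases, built of an alpha subunit such as P4ha1 or P4ha2 and the beta subunit P4hb, hydroxylate prolines and so stabilise the collagen helix, and lysyl hydroxylases of the Plod family hydroxylate lysines, which then carry sugars and take part in crosslinks. Both are dioxygenases that need oxygen, iron, ascorbate and 2-oxoglutarate. Outside the cell, the copper enzymes of the lysyl oxidase family oxidise lysines and hydroxylysines to aldehydes that crosslink collagen and elastin. In breast tumours this crosslinking is known for stiffening the matrix, and several of these enzymes are known targets of hypoxia-inducible factors. The organoids were embedded in collagen I supplied from outside, which adds no mRNA to the counts.

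Library totals ran from 44890302 to 64763645 counts. Levels are given as CPM, the standard scaling of counts to one library size, here with library sizes adjusted by TMM, and 1 CPM was 44.2 counts in the smallest library as scaled. Cdh1 checked the labels: it averaged 189 ± 44.1 CPM over WT samples (SD, n = 4) against 91.3 ± 15.4 CPM over E-cad-KO samples (SD, n = 5), with a log2 fold change of -1.05 (edgeR adjusted p = 0.0275). Cdh1 reads were thus reduced to 0.48 of WT and not absent, with 79.0 to 118.3 CPM left in the E-cad-KO libraries. Where the remaining reads came from was not tested. The luminal keratin gene Krt8 ran from 1099 to 1328 CPM in WT and from 1393 to 1724 CPM in E-cad-KO, without overlap. Its log2 fold change was 0.39 (edgeR adjusted p = 0.0530). Krt14 and Krt5 were less even between libraries. Krt14 ran from 9278 CPM (WT 1) to 1874 CPM (WT 4), and from 3045 to 6529 CPM in E-cad-KO. Krt5 ran from 2034 CPM (WT 1) to 284 CPM (WT 4), and from 271 to 1060 CPM in E-cad-KO. The summed CPM of 10 fibroblast markers ran from 56.7 to 244.7 in WT and from 72.2 to 114.7 in E-cad-KO. By this sum, WT 1 held the least fibroblast RNA and WT 4 the most. In such bulk samples, fewer cells of a type and less RNA per cell cannot be told apart.

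Of the 10 genes, 1 was called at an adjusted p under 0.05 by edgeR's quasi-likelihood test: Loxl4, which rose. Over all 17289 genes tested, 1.41% were called in either direction and 0.908% were called higher and 0.503% lower. The libraries of the groups did not overlap for 1 of the 10, again Loxl4, against 8.11% of all genes tested, 4.28% with E-cad-KO higher and 3.83% with it lower. The log2 fold change was above 0 for 4 of the 10, against 48% of all genes tested. The median log2 fold change was -0.06 over the 10 and -0.01 over all genes tested. At an unadjusted p under 0.05 the count was also 1 of 10, against 16.7% of all genes, 8.74% higher and 7.99% lower.

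**Figure D1:**
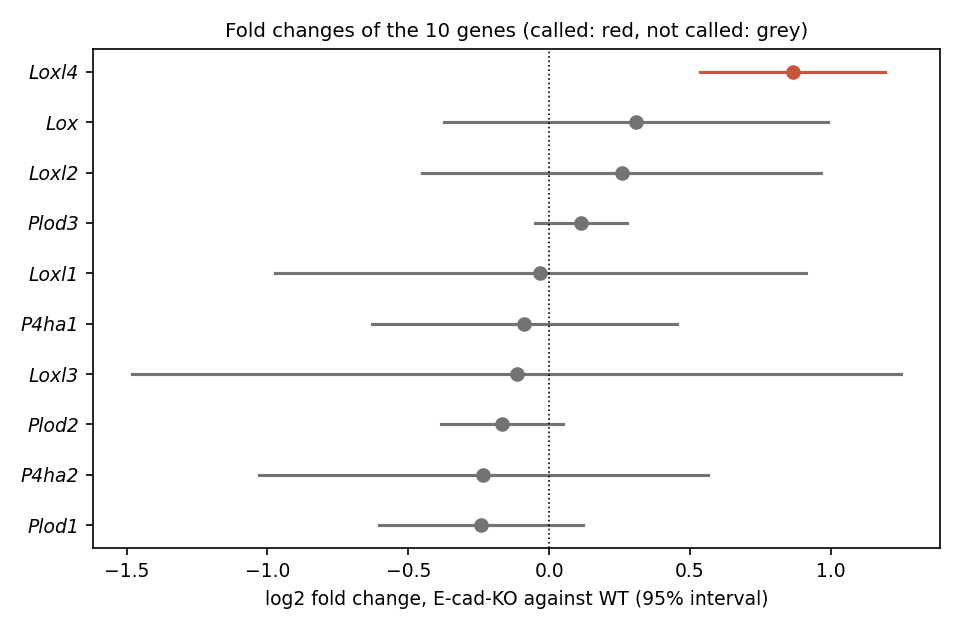
Log2 fold change of each of the 10 genes in E-cad-KO against WT (points) with its 95% interval (bars). The interval of Loxl4 runs from 0.54 to 1.19, and those of the other 9 genes include 0, the widest being that of Loxl3 at -1.48 to 1.25.

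Loxl4 (ENSMUSG00000025185; GRCm38 chromosome 19, 42593982 to 42612813, minus strand) encodes a secreted lysyl oxidase whose amino-terminal part holds scavenger receptor domains, as those of Loxl2 and Loxl3 do. Its exons overlap no other annotated gene. The WT libraries 1 to 4 held 7.66, 8.73, 7.65 and 10.8 CPM. In E-cad-KO 1 to 5 the values were 15.999, 15.8, 20.3, 13.3 and 14.0 CPM. Every E-cad-KO library was above every WT library. The means were 8.72 ± 1.496 CPM over WT samples (SD, n = 4) against 15.9 ± 2.72 CPM over E-cad-KO samples (SD, n = 5). The fold change was 1.82, or 0.87 on the log2 scale (SE 0.15, edgeR adjusted p = 0.0324), and the gene ranked 74 of 17289 by p. At least 451 reads counted for Loxl4 in each library, so that counting error was small beside the spread between libraries.

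The size of the Loxl4 change varied little between settings, and its call was near the threshold. Over 21 alternatives the log2 fold change ran from 0.76 to 0.99, and 12 of them called it. With 1 library left out at a time it was called without WT 4 (edgeR adjusted p = 0.0141) and not without WT 1 (0.0588), WT 2 (0.0625) or WT 3 (0.105). Leaving out E-cad-KO 1 to 5 in turn gave edgeR adjusted p = 0.0775, 0.0592, 0.0671, 0.0566 and 0.0583. With WT 1 and WT 4 both absent, the libraries with the lowest and highest summed fibroblast markers, it was 0.96 (SE 0.17, edgeR adjusted p = 0.0492). With the fibroblast score of each library as a covariate it was 0.90 (SE 0.14, edgeR adjusted p = 0.0129), with the macrophage score 0.87 (edgeR adjusted p = 0.00789) and with the hypoxia score 0.87 (edgeR adjusted p = 0.0068).

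**Figure D2:**
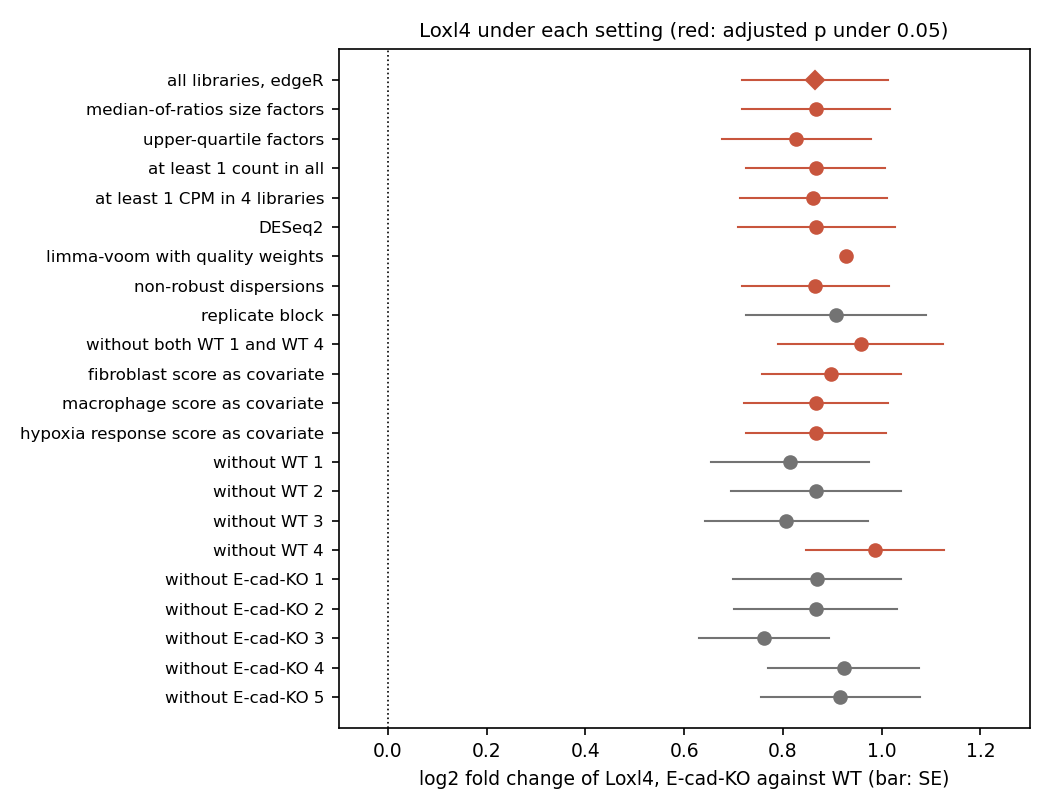
Log2 fold change of Loxl4 in E-cad-KO against WT under the main setting (diamond) and 21 alternatives (circles), with the standard error as bars where the tool gave one. All points lie between 0.76 and 0.99, and the 9 grey ones, 8 of them with a single library left out, missed an adjusted p of 0.05.

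The RefSeq table of promoters (GRCm38.p6; 250 bases before to 50 after a gene's start) held 5 of the 10 genes. Each was searched on both strands for 3 motifs picked after the values were known, namely the core of the hypoxia response element ACGTG, the TEAD motif GGAATG and the AP-1 motif TGANTCA, the binding sequences of hypoxia-inducible factors, of the partners of YAP and TAZ, and of Fos and Jun. Over 32851 promoters of this length, 19.6% held ACGTG, 14.7% GGAATG and 7.81% TGANTCA. The Loxl4 promoter is shown because Loxl4 was the called gene. It held none of the 3 letter strings, which says only that they are not in this window.
Loxl4, chr19:42612757-42613056, minus strand: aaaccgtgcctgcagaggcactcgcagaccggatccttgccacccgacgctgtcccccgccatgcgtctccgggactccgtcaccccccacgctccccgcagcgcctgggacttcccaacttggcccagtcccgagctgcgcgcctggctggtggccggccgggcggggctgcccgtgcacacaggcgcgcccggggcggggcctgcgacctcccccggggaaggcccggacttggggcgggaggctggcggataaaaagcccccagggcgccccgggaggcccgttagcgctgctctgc

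The other 4 lysyl oxidase genes were not called, and their groups overlapped. Lox (ENSMUSG00000024529; GRCm38 chromosome 18, 52516067 to 52529867), the founding member of the family, held 3.04, 3.28, 9.42 and 5.07 CPM in WT 1 to 4 and 5.83, 6.17, 7.82, 6.72 and 5.71 CPM in E-cad-KO 1 to 5. Its highest and lowest values were both in WT, with WT 3 above every E-cad-KO library. For Lox the log2 fold change was 0.31 (95% interval -0.37 to 0.99, edgeR adjusted p = 0.676), and without WT 3 it was 0.76 (edgeR adjusted p = 0.158).

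Loxl1 (ENSMUSG00000032334; GRCm38 chromosome 9, 58287738 to 58313186), known for elastic fibre maintenance, held 1.07, 1.83, 4.77 and 5.37 CPM in WT 1 to 4 and 3.48, 2.50, 3.95, 2.52 and 3.50 CPM in E-cad-KO 1 to 5. All E-cad-KO values lay within the WT range. Its log2 fold change was -0.03 (95% interval -0.97 to 0.91, edgeR adjusted p = 0.984).

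Loxl2 (ENSMUSG00000034205; GRCm38 chromosome 14, 69609068 to 69695834), an oxidase known for promoting breast cancer metastasis in mice, held 3.41, 4.05, 7.89 and 4.16 CPM in WT 1 to 4. In E-cad-KO 1 to 5 it held 3.69, 6.10, 9.605, 4.49 and 5.32 CPM. Library 3 was the highest in each group, a shared number that the labels do not describe as a pair. Its log2 fold change was 0.26 (95% interval -0.45 to 0.96, edgeR adjusted p = 0.750).

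Loxl3 (ENSMUSG00000000693; GRCm38 chromosome 6, 83034173 to 83052562) varied most of the 10 genes among WT libraries. It held 3.67, 12.7, 18.7 and 49.1 CPM in WT 1 to 4 and 28.8, 13.4, 14.7, 21.4 and 18.8 CPM in E-cad-KO 1 to 5. WT 1 and WT 4 enclosed all other libraries, and the coefficient of variation was 93.6% in WT and 31.7% in E-cad-KO. Between groups Loxl3 stood at a log2 fold change of -0.12 (95% interval -1.48 to 1.25, edgeR adjusted p = 0.953). Without WT 4 it was 0.73 (edgeR adjusted p = 0.493), a change of sign that rests on this library. The exons of Loxl3 overlap those of Htra2 on the other strand, which stood at 36.8 CPM on average in WT and at 37.7 CPM in E-cad-KO. Exons of Lox and Loxl2 overlap AC161119.1 and Gm27177 on the other strand, which were too low to be tested, and Loxl2 also overlaps Mir6950 on its own strand.

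**Figure D3:**
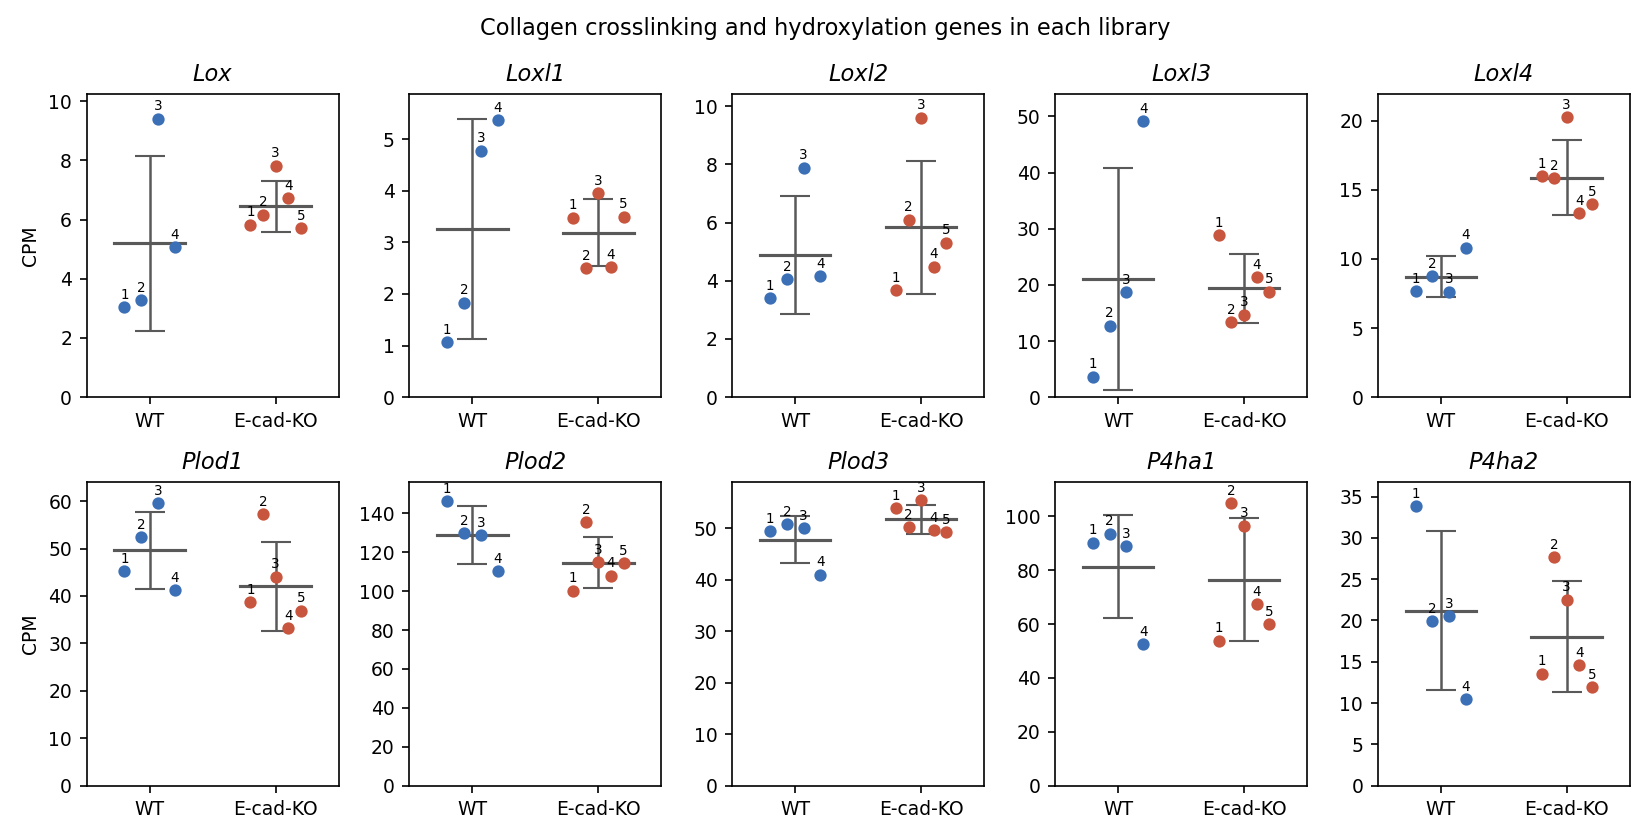
CPM of each of the 10 genes (one panel each, axis from 0) in WT (blue) and E-cad-KO (red) libraries, numbered by replicate, with the group mean and SD in grey. The groups are apart only for Loxl4, where WT ends at 10.8 CPM and E-cad-KO starts at 13.3 CPM, and WT 4 holds the highest Loxl3 value and the lowest P4ha1 and P4ha2 values.

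None of the lysyl hydroxylases was called. Plod2 (ENSMUSG00000032374; GRCm38 chromosome 9, 92542223 to 92608428) hydroxylates lysines of the collagen telopeptides, where crosslinks start. It held 146.3, 129.7, 128.8 and 110.3 CPM in WT 1 to 4 and 100.2, 135.6, 114.9, 107.9 and 114.4 CPM in E-cad-KO 1 to 5. Of the E-cad-KO libraries, 2 were below every WT library and the rest lay within the WT range. The log2 fold change of Plod2 was -0.17 (95% interval -0.39 to 0.05, edgeR adjusted p = 0.429), the smallest p of the 10 genes after that of Loxl4.

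Plod1 (ENSMUSG00000019055; GRCm38 chromosome 4, 147909753 to 147936767) hydroxylates lysines within the helix. It held 45.2, 52.4, 59.6 and 41.2 CPM in WT 1 to 4 and 38.7, 57.2, 44.1, 33.2 and 36.9 CPM in E-cad-KO 1 to 5. Of the E-cad-KO libraries, 3 were below every WT library. For Plod1 the log2 fold change was -0.24 (95% interval -0.60 to 0.12, edgeR adjusted p = 0.505).

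Plod3 (ENSMUSG00000004846; GRCm38 chromosome 5, 136987019 to 136996648), which also transfers sugars to hydroxylysine, had the least spread of the 10 genes. It held 49.4, 50.7, 49.99 and 40.9 CPM in WT 1 to 4 and 53.9, 50.3, 55.4, 49.7 and 49.3 CPM in E-cad-KO 1 to 5. The log2 fold change was 0.11, and its 95% interval of -0.05 to 0.28 (edgeR adjusted p = 0.479) was the narrowest of the 10. Exons of Plod3 overlap those of Znhit1 on the other strand, at 43.0 CPM on average in WT and at 40.2 CPM in E-cad-KO, and Mir702 on its own strand. Exons of Plod2 overlap Gm38391 on the other strand, at 2.46 CPM on average in WT and at 1.86 CPM in E-cad-KO.

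Neither prolyl hydroxylase subunit was called. P4ha1 (ENSMUSG00000019916; GRCm38 chromosome 10, 59323296 to 59373304) held 90.2, 93.6, 88.9 and 52.6 CPM in WT 1 to 4 and 53.9, 104.8, 96.5, 67.4 and 60.0 CPM in E-cad-KO 1 to 5. P4ha2 (ENSMUSG00000018906; GRCm38 chromosome 11, 54100095 to 54131665) held 33.8, 19.9, 20.6 and 10.5 CPM in WT 1 to 4 and 13.6, 27.7, 22.5, 14.6 and 11.9 CPM in E-cad-KO 1 to 5. For both genes WT 4 was the lowest library of all, and in E-cad-KO, libraries 2 and 3 were the highest. The log2 fold change was -0.09 for P4ha1 (95% interval -0.63 to 0.45, edgeR adjusted p = 0.902). For P4ha2 it was -0.23 (95% interval -1.03 to 0.56, edgeR adjusted p = 0.806). The exons of neither gene overlap another annotated gene.

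Compared per kb of the longest annotated transcript, Plod2, P4ha1, Plod3 and Plod1 led, and P4ha2 stood among the oxidases. Plod2 was highest, at 35.2 ± 4.02 CPM per kb over WT samples (SD, n = 4) against 31.3 ± 3.59 CPM per kb over E-cad-KO samples (SD, n = 5), above the next gene P4ha1 in 9 of 9 libraries. P4ha1 averaged 20.1 CPM per kb in WT and 18.9 in E-cad-KO and was above Plod3, the third, in 7 of 9. Plod3 (14.6 and 15.8 CPM per kb) was above Plod1 (12.1 and 10.3) in 9 of 9, and Plod1 above P4ha2 in 8 of 9. P4ha2 (6.93 and 5.90 CPM per kb) and Loxl3 (5.14 and 4.74) exchanged places, P4ha2 being higher in 5 of 9 libraries, and Loxl3 was above Loxl4 in 6 of 9. Loxl4, at 2.33 CPM per kb in WT and 4.25 in E-cad-KO, was above Lox in 9 of 9. Lox, Loxl2 and Loxl1 were lowest, with group means between 0.92 and 1.36 CPM per kb, and Lox was above Loxl2, and Loxl2 above Loxl1, in 6 of 9 libraries each. With the length of all annotated exons in place of the longest transcript, the order changed: P4ha2 averaged 3.40 CPM per kb in WT and 2.89 in E-cad-KO, below Loxl3 (4.57 and 4.22) and, in E-cad-KO, below Loxl4 (3.77). Plod2 (23.9 and 21.3), P4ha1 (19.8 and 18.6), Plod3 (10.6 and 11.4) and Plod1 (7.34 and 6.21) led on that scale too.

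**Figure D4:**
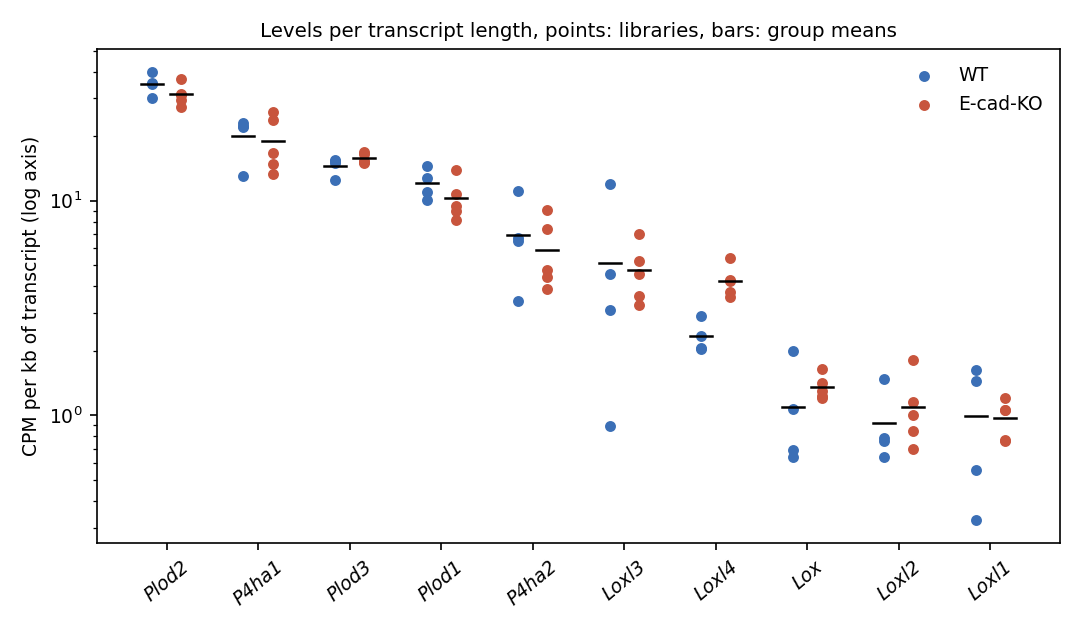
CPM per kb of the longest annotated transcript (log axis) for the 10 genes, ordered by their mean, with WT libraries in blue, E-cad-KO libraries in red and group means as bars. Plod2 leads at about 35.2 in WT, the oxidases other than Loxl3 and Loxl4 end the order near 1, and Loxl3 in WT spreads from 0.895 to 11.98.

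The make-up of each family on this length scale was compared by 3 two-sided exact permutation tests over samples, of which the smallest possible p was 0.0159. Lox made up 11.6% ± 5.05 of the 5 lysyl oxidases over WT samples (SD, n = 4) against 11.04% ± 1.55 over E-cad-KO samples (SD, n = 5; exact permutation p = 0.825, 0.825 adjusted over the 3). Plod2 made up 56.9% ± 2.72 of the 3 lysyl hydroxylases over WT samples (SD, n = 4) against 54.6% ± 2.20 over E-cad-KO samples (SD, n = 5; exact permutation p = 0.214, 0.643 adjusted). P4ha1 made up 75.2% ± 5.64 of the P4ha pair over WT samples (SD, n = 4) against 76.5% ± 2.04 over E-cad-KO samples (SD, n = 5; exact permutation p = 0.770, 0.825 adjusted). The differences in the Lox and P4ha1 shares were smaller than the SD of either group, and that in the Plod2 share, -2.29 points, lay between the 2 SDs; none of the 3 passed the test. Loxl4 made up 27.5% ± 13.6 of the oxidases over WT samples (SD, n = 4) against 34.3% ± 4.92 over E-cad-KO samples (SD, n = 5), a share not tested that also moves with Loxl3. Plod3 made up 23.6% ± 0.61 of the lysyl hydroxylases over WT samples (SD, n = 4) against 27.7% ± 2.88 over E-cad-KO samples (SD, n = 5). That share was not tested either.

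Of the 9 genes that were not called, 5 went with the level of another gene group across libraries: Loxl1, Loxl3, Plod2, P4ha1 and P4ha2. Each library was given a score for 5 gene lists (fibroblast, macrophage and endothelial markers, hypoxia response genes, and collagen and elastin substrates), the mean of the genes' centred log2 CPM, and 45 relations of 9 members to these scores were computed over the 9 libraries. No list holds a member, and Loxl4 was left out because its groups did not overlap. The relations were chosen after the data were seen, and 10 of the 45 had an adjusted p under 0.05 for Pearson's r and 8 for Spearman's rho, among the latter that of Loxl1 and the endothelial score (rho 0.87, exact permutation p = 0.00451, 0.0254 adjusted), for which r was 0.75 (exact permutation p = 0.0205, 0.0779 adjusted). Lox, Loxl2, Plod1 and Plod3 had no relation with an adjusted p under 0.05 by either measure. P4ha2 followed the hypoxia score with r = 0.96 and Spearman's rho = 0.97 (exact permutation p = 0.000118 and 0.000165, 0.00267 and 0.00248 adjusted over the 45). P4ha1 did so with r = 0.94 and rho = 0.90 (exact permutation p = 0.000262 and 0.00203, 0.00393 and 0.0152 adjusted). For Plod2 r was 0.85 and rho 0.87 (exact permutation p = 0.00468 and 0.00451, 0.0301 and 0.0254 adjusted). Without WT 4 and E-cad-KO 1, the libraries farthest from the median score, r was 0.97 for P4ha2, 0.87 for P4ha1 and 0.86 for Plod2. P4ha2 also ran against the macrophage score, with r = -0.87 and rho = -0.90 (exact permutation p = 0.00281 and 0.00203, 0.0211 and 0.0152 adjusted), and r was -0.73 without WT 4 and E-cad-KO 5.

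The hypoxia score itself did not separate the groups, running from -0.999 to 0.753 in WT and from -0.607 to 0.702 in E-cad-KO. The summed CPM of its 17 genes was 7915, 6311, 5158 and 2772 in WT 1 to 4. In E-cad-KO 1 to 5 this sum was 3320, 6862, 5861, 4102 and 3847 CPM. WT 1 and E-cad-KO 2, the highest of their groups, also held the most P4ha2 of their groups. A score of the epithelial markers, outside the lists related to the enzymes, was 0.299 in WT 1, 0.303 in E-cad-KO 2 and -0.647 in WT 4. Both this score and the hypoxia score were highest in WT 1 and E-cad-KO 2 and lowest in WT 4. In E-cad-KO 1 the epithelial score was -0.0998 and the hypoxia score -0.607. Whether P4ha1, P4ha2 and Plod2 follow the hypoxia score apart from epithelial content was not tested. Egln3, an oxygen-sensing prolyl hydroxylase that marks hypoxia-inducible factors for decay and is itself induced by hypoxia, went from 61.1 CPM (WT 4) to 394.7 CPM (WT 1) and from 46.6 CPM (E-cad-KO 1) to 328.1 CPM (E-cad-KO 2). With the hypoxia score as a covariate the standard error of P4ha1 fell from 0.24 to 0.09 and that of P4ha2 from 0.35 to 0.10, and their log2 fold changes were -0.05 (edgeR adjusted p = 0.767) and -0.11 (edgeR adjusted p = 0.548). Plod2 stood at -0.15 (SE 0.05, edgeR adjusted p = 0.0987) in that fit. This covariate was added after the data were seen. A smaller standard error follows from the relation of these genes to the score in the same libraries and adds no support to it.

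The P4ha1 and P4ha2 promoters are shown because both genes followed the hypoxia score. Capitals mark ACGTG or its reverse complement, which occurs once in P4ha1, starting at base 235 of the window on the minus strand, and in P4ha2, whose RefSeq start lies inside the GENCODE gene, at bases 173 and 261 on the plus strand. Of the other promoters in the table, that of Plod3 held it at base 197 and those of Plod1 and Loxl4 did not. None of the 5 held GGAATG or TGANTCA. Over all promoters searched, 19.6% held ACGTG. Plod3, whose promoter held it, had no relation to the hypoxia score at an adjusted p under 0.05. Plod2, which followed that score, was not among these promoters. Whether the matches have a part in the levels was not tested.
P4ha1, chr10:59323046-59323345, plus strand: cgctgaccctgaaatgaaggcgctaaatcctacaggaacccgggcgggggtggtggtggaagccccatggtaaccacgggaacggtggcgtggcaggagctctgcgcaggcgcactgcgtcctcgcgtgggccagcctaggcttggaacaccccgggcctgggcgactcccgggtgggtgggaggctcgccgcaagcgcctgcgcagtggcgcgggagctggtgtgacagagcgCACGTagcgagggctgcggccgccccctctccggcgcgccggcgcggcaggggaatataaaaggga
P4ha2, chr11:54100674-54100973, plus strand: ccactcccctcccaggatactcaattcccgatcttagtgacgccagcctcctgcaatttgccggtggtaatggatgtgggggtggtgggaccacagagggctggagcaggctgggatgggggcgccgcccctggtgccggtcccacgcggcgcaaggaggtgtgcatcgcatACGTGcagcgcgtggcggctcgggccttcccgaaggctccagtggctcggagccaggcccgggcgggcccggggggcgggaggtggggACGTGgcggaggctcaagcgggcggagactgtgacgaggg

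The oxidase Loxl1 went with the score of collagen and elastin genes, a general list not chosen for Loxl1, and with the fibroblast score. With the score of collagen and elastin genes, r was 0.99 and rho 0.97 (exact permutation p = 1.1e-05 and 0.000165, 0.000496 and 0.00248 adjusted over the 45), and r was 0.97 without WT 1 and WT 4. With the fibroblast score of the same libraries, r was 0.92 and rho 0.97 (exact permutation p = 0.000529 and 0.000165, 0.00595 and 0.00248 adjusted), and r was 0.85 without WT 1 and WT 4. For Lox and the fibroblast score r was 0.58 and rho 0.47 (exact permutation p = 0.0998 and 0.213, 0.214 and 0.330 adjusted).

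Loxl3 had 4 of the 10 relations. It ran against the hypoxia score, with r = -0.87 and rho = -0.93 (exact permutation p = 0.000675 and 0.00075, 0.00608 and 0.00843 adjusted over the 45), and r was -0.75 without WT 4 and E-cad-KO 1. With the macrophage score r was 0.79 and rho 0.82 (exact permutation p = 0.0084 and 0.0108, 0.0473 and 0.0538 adjusted), and r was 0.73 without WT 4 and E-cad-KO 5. With the fibroblast score r was 0.80 and rho 0.67 (exact permutation p = 0.0109 and 0.0589, 0.0491 and 0.204 adjusted), and with the substrates r was 0.82 and rho 0.67 (exact permutation p = 0.00956 and 0.0589, 0.0478 and 0.204 adjusted). Without WT 1 and WT 4 these fell to r = 0.28 and r = 0.23, so that both rest on those libraries. The scores are not independent of each other. The fibroblast and hypoxia scores ran opposite (r = -0.70, rho = -0.63, exact permutation p = 0.0375 and 0.0760), with r = -0.23 without WT 1 and WT 4. The fibroblast, macrophage and substrate scores were all lowest in WT 1 and highest in WT 4, and the hypoxia score was the reverse. Other pairs of scores were not tested. The relations of Loxl1, Loxl3 and P4ha2 to several scores may therefore overlap and were not tested apart.

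The fibroblast markers were detected in all libraries, 8 of 10 with a negative log2 fold change and 0 called by edgeR, with 1 at an unadjusted p under 0.05, 0 called by DESeq2 or limma-voom and a median of -0.47. Dcn, a small matrix proteoglycan of fibroblasts, ran from 12.9 CPM in WT 1 to 87.8 CPM in WT 4 and from 15.9 to 36.2 CPM in E-cad-KO. Cd34, the marker with the smallest p, went the other way, with 13.2 CPM in WT 1 and 11.3 CPM in WT 4. So did Fbln1, with 2.99 CPM in WT 1 and 1.62 CPM in WT 4. The remaining fibroblast markers were higher in WT 4 than in WT 1. With the fibroblast score as a covariate the log2 fold change of Loxl1 was 0.45 (SE 0.17, edgeR adjusted p = 0.167), that of Loxl3 0.62 (SE 0.37, edgeR adjusted p = 0.418) and that of Lox 0.52 (SE 0.22, edgeR adjusted p = 0.230). Summed macrophage markers were 532.9 CPM in WT 4 and between 345.9 and 431.4 CPM in the other 8 libraries, where Cd14, a receptor for bacterial lipopolysaccharide, made up most of the sum. Cd14 was lowest in WT 4, at 166.6 CPM against 257.2 to 391.7 CPM elsewhere, while Lyz2, the lysozyme gene of macrophages, was 307.5 CPM there and ran from 10.8 to 122.02 CPM in the other 8. The macrophage score ran from -1.65 in WT 1 to 2.02 in WT 4. Summed endothelial markers ran from 7.93 to 14.8 CPM in WT and from 5.83 to 9.54 CPM in E-cad-KO. The other marker lists had 0 calls by edgeR: log2 fold changes were negative for 8 of 10 macrophage, 7 of 7 endothelial, 6 of 6 pericyte and 1 of 1 adipocyte genes tested, and positive for 6 of 8 epithelial genes. At an unadjusted p under 0.05 stood 2 endothelial genes, lower, and 4 epithelial genes, higher. The groups did not overlap for 2 of the 8 epithelial genes, Krt8 and Cldn7, both higher in E-cad-KO. Over all genes tested this share was 8.11%, and 4.28% with E-cad-KO higher. DESeq2 called 1 endothelial and 3 epithelial genes and 0 of the other marker lists, and limma-voom called 2 epithelial genes and 0 of the rest. Over all genes given an adjusted p, DESeq2 called 8.46% of 14256 and limma-voom 2.96% of 17289. Apart from the covariate fits, the part of these cells in the values of the 10 genes was not tested.

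**Figure D5:**
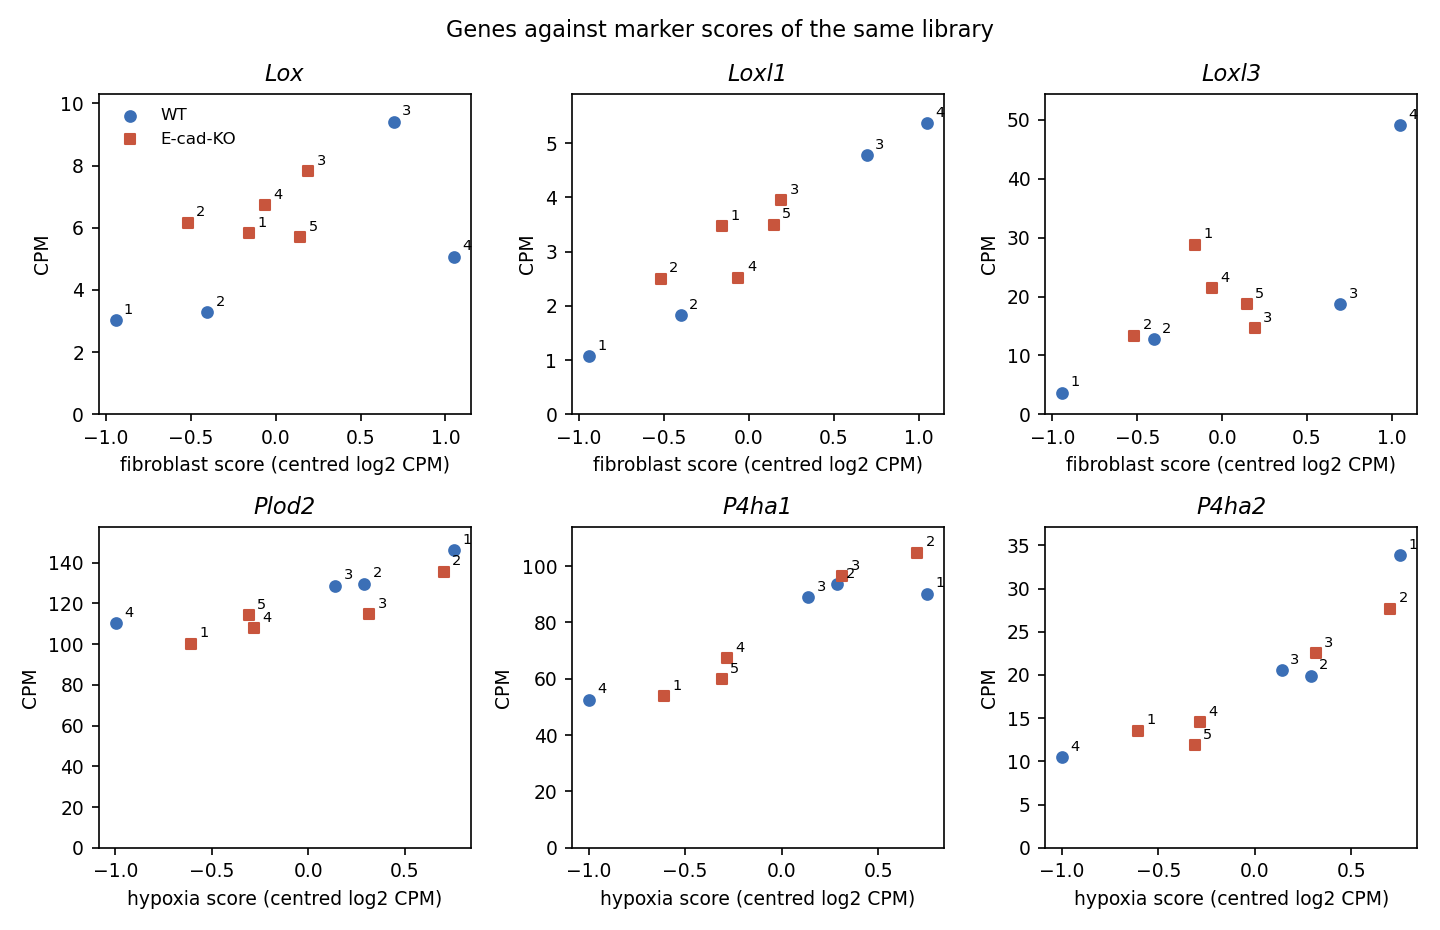
CPM of 6 genes (axis from 0) against the library's score for fibroblast markers (top row: Lox, Loxl1, Loxl3) or hypoxia response genes (bottom row: Plod2, P4ha1, P4ha2), with WT as blue circles and E-cad-KO as red squares numbered by replicate. Points of both groups intermingle along the score for P4ha2 (r = 0.96) and Loxl1 (r = 0.92), and in the Loxl3 panel WT 1 and WT 4 stand at the ends (r = 0.80, and 0.28 without them).

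Among other genes of collagen maturation, 0 of 20 partners in the endoplasmic reticulum were called by edgeR, with 2 higher and 1 lower at an unadjusted p under 0.05, a median log2 fold change of 0.01, and 2 called by DESeq2 and 1 by limma-voom. Nearest to the threshold was Colgalt1, which adds galactose to hydroxylysine after the lysyl hydroxylases have acted. It held 119.8, 148.8, 124.5 and 139.4 CPM in WT 1 to 4 and 168.8, 169.5, 170.1, 154.8 and 163.5 CPM in E-cad-KO 1 to 5, with no overlap (log2 fold change 0.31, SE 0.07, edgeR adjusted p = 0.0574). Ppib, a proline isomerase that helps fold collagen, stood at 417 ± 14.7 CPM over WT samples (SD, n = 4) against 369 ± 11.1 CPM over E-cad-KO samples (SD, n = 5), also without overlap (log2 fold change -0.18, edgeR adjusted p = 0.110). The groups were apart for 2 of the 20, these 2, against 8.11% of all genes tested. P4hb, the partner of both P4ha subunits, stood at -0.08 (edgeR adjusted p = 0.732), the third alpha subunit P4ha3 at 0.02 (edgeR adjusted p = 0.993) and the collagen chaperone gene Serpinh1 at 0.07 (edgeR adjusted p = 0.756). These 3 were named after their values were seen, for their ties to the enzymes.

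Of the 17 genes of procollagen processing and crosslinking outside the cell, 15 were tested and 0 called by edgeR, with 1 higher and 1 lower at an unadjusted p under 0.05 and 1 called by each of DESeq2 and limma-voom. Their median log2 fold change was 0.00057. Adamts3, which cleaves procollagen amino-propeptides, held 12.4, 11.6, 12.9 and 8.34 CPM in WT 1 to 4 and 7.08, 7.40, 6.94, 5.98 and 4.35 CPM in E-cad-KO 1 to 5. Its groups did not overlap, and Adamts3 stood at -0.83 on the log2 scale (SE 0.18, edgeR adjusted p = 0.0502). Pxdn, a peroxidase that crosslinks collagen IV, stood at 0.41 (edgeR adjusted p = 0.233) and Bmp1, the protease that activates Lox and trims procollagen, at 0.31 (edgeR adjusted p = 0.347).

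The substrates were not called either, with 0 of 17 by edgeR, 7 positive, 1 at an unadjusted p under 0.05 and a median log2 fold change of -0.03. DESeq2 called 1 and limma-voom 0. The one was Col18a1, a basement membrane collagen, at 127 ± 22.0 CPM over WT samples (SD, n = 4) against 187 ± 25.0 CPM over E-cad-KO samples (SD, n = 5; log2 fold change 0.56, SE 0.13, edgeR adjusted p = 0.0721). Eln, the elastin gene, ran from 0.900 CPM in WT 1 to 18.5 CPM in WT 4 and stood at -1.33 (edgeR adjusted p = 0.448). Among 8 genes of oxygen sensing, 7 were negative and edgeR called 0, with 0 at an unadjusted p under 0.05, 0 by DESeq2 or limma-voom and a median of -0.19. Among the 17 hypoxia response genes 15 were negative and 0 were called by edgeR. At an unadjusted p under 0.05 stood 1, Adm, the gene of the vasodilator adrenomedullin, at 0.79 (edgeR adjusted p = 0.123). Adm was also the 1 of these 17 whose groups did not overlap. DESeq2 called 1 and limma-voom 0, and the median was -0.13.

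The genes whose pattern was most like those of Loxl4 and Plod2, the 2 members with the smallest p, were sought among 10721 genes by Pearson's r of log2 CPM over the 9 libraries after the group means were subtracted. This is a description of rank, with no test. For Loxl4 they were Pcbp4 (0.96), Osbpl2 (0.93) and Ost4 (0.93), whose own log2 fold changes between groups were 0.12, -0.05 and -0.16. For Plod2 they were Mrps16 (0.97), Fam210a (0.97) and Gatd1 (0.97), with log2 fold changes of -0.31, -0.15 and -0.09, of which that of Mrps16, a mitochondrial ribosomal protein gene, was called (edgeR adjusted p = 0.0310).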

How the data were processed

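The authors deposited 1 table of raw counts per gene, not normalised, for 9 samples. The submitters' processing notes name HTSeq, TopHat2, Bowtie2 and GRCm38. For versions, settings and strand in counting, the sources used here give nothing, so genes whose exons overlap another gene are marked. Per the labels' protocols, whole gels were frozen, RNA came from an RNeasy kit and sequencing used a TruSeq stranded mRNA preparation.

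Symbols matched 51633 of 51912 genes, and positions and lengths came from GENCODE M21. Replicate columns were not pooled, and no pair agreed within sampling noise (smallest chi-square per degree of freedom 14.8). edgeR 4.0.16 in R 4.3.3 was run over the whole table with TMM, filterByExpr, robust quasi-likelihood fits, a design of group alone and Benjamini-Hochberg adjusted p. P-values are two-sided. A standard error is the log2 fold change divided by the square root of F, and intervals are at 95%. Scores use log2 CPM with a prior count of 2. Alternatives were median-of-ratios and upper-quartile factors, 2 filters, DESeq2 1.42.0, limma 3.58.1 (voom with quality weights), non-robust fits, a replicate block, each library left out, WT 1 and WT 4 left out, and fibroblast or macrophage scores as covariates. A hypoxia score as covariate, the relations to list scores and the promoter motifs were added after seeing the data; all 5 scores first looked at are in the 45 relations. The routines were tested on simulated data. Named are all 10 members, Cdh1, up to 4 genes of each list by smallest p, and the 3 genes most like each of 2 members. P4hb, P4ha3, Serpinh1, Cd14, Fbln1, Krt5 and Krt14 fall outside this rule and were chosen after their values were seen. The members and lists were chosen with earlier results of these data known.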

Additional observations from a re-analysis of the deposited data

Results flagged for a closer look

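In 20 sets of values (10 genes in each of 2 groups), 3 held a library far from the others of its group by Dixon's ratio, and chance alone flags about 1 in 20. Loxl2 was 7.89 CPM in WT 3, high against 3.41 to 4.16 CPM in the other WT libraries. Plod3 was 40.9 CPM in WT 4, low against 49.4 to 50.7 CPM. P4ha1 was 52.6 CPM in WT 4, low against 88.9 to 93.6 CPM. WT 4 also had the highest summed fibroblast (244.7 CPM) and macrophage (532.9 CPM) markers, though the lowest Cd14 (166.6 CPM) of the latter, and the lowest summed hypoxia response genes (2772 CPM) of the 9 libraries. The part of these in the 2 low values was not tested.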

How the results depend on the processing

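The number of genes called over the whole table, 244, was 1206 with DESeq2, 511 with limma-voom, 79 without both WT 1 and WT 4, and 556, 1235 and 1375 with the fibroblast, macrophage and hypoxia scores as covariates. With 1 library left out it ran from 9 to 334, and the number of the 10 enzyme genes called ran from 0 to 1. With the replicate number as a block both numbers were 0, the only alternative with all libraries in which Loxl4 lost its call. Same-numbered libraries correlated at -0.40, 0.29, -0.05 and 0.27 in their deviations over 2000 genes. The labels do not say whether the numbers pair the samples, and these few correlations cannot decide it. The block gave Loxl4 0.91 (edgeR adjusted p = 0.165), Loxl1 0.17 and Loxl3 0.24. Under the block the share of Plod2 differed by -2.78 points, that of Lox by -0.40 and that of P4ha1 by 0.68. In the other alternatives with all libraries, and without both WT 1 and WT 4, 1 of the 10 was called. With 1 library left out at a time, Loxl4 was called only without WT 4. With upper-quartile factors 123 were called higher and 151 lower, against 157 and 87.

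Several uncalled fold changes changed sign. Loxl1 was 0.17 with limma-voom and 0.45, 0.20 and 0.061 with the fibroblast, macrophage and hypoxia scores. Loxl3 was 0.48 with limma-voom, 0.31 without both WT 1 and WT 4, and 0.62, 0.40 and 0.17 with these scores. Loxl2 was -0.032 without both WT 1 and WT 4. With 1 library left out Loxl1 ran from -0.32 to 0.32, Loxl3 from -0.46 to 0.73, P4ha1 from -0.25 to 0.024 and P4ha2 from -0.46 to 0.090. The share of P4ha1 differed by -1.42 to 2.68 points and that of Lox by -2.49 to 1.31 points. The cause was not tested. The median over the 10 genes, a value with no test, changed sign too: it was -0.06 and ran from -0.10 to 0.23, and 4 to 6 of them were positive. Lox, Loxl4, Plod1, Plod2 and Plod3 kept their sign in all 21 alternatives. Depth limits none of the 10, the lowest count being 63 for Loxl1.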
